A study of Homo sapiens with 54 samples.

Results

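The 4 human vault RNA genes were examined in ChIP-seq data from T47D cells, a human breast cancer line positive for the progesterone receptor (PR). They were taken by name from the RefSeq gene table of GRCh38, where VTRNA1-1, VTRNA1-2, VTRNA1-3 and VTRNA2-1 are the 4 entries used of 59679 genes on chromosomes 1 to 22, X and Y. Cells had been given ethanol vehicle or R5020, a synthetic progestin, for 1 h. Chromatin was immunoprecipitated for PR, for 4 subunits of RNA polymerase III (POLR3A, POLR3C, POLR3G and POLR3GL), for the initiation factor Brf1, for Maf1, a repressor of that polymerase, and for histone H3 acetylated at lysine 27 (H3K27Ac), a mark of active promoters and enhancers. The authors deposited 16 peak lists, 1 for each of the 8 antibodies in each treatment, and each list stands for 3 libraries. No list carries replicate values, so the treatments are described side by side without a test, and the sequencing depth is unknown. For 4 libraries titled R5020 (2 POLR3C, 1 POLR3G and 1 POLR3GL) the treatment tag reads ethanol, and the R5020 lists of these 3 subunits are named here by title.

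Vault RNAs are short transcripts of RNA polymerase III, and those of the VTRNA1 genes are carried by the vault, a large cytoplasmic ribonucleoprotein particle. Like tRNA genes, the vault RNA genes have internal promoter elements, the A box and the B box, which bind TFIIIC. TFIIIC places TFIIIB, the complex that contains Brf1, just upstream of the start, and TFIIIB recruits the polymerase. VTRNA2-1, also called nc886, is best known for binding the kinase PKR rather than as a part of the vault. POLR3A is the largest subunit of the enzyme, POLR3C belongs to a subcomplex that acts in initiation, and POLR3G and POLR3GL are alternative forms of a further subunit of that subcomplex.

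VTRNA1-1 (98 bp), VTRNA1-2 (88 bp) and VTRNA1-3 (88 bp) lie in a row on chromosome 5, at 140711276 to 140711373, 140718926 to 140719013 and 140726159 to 140726246. They are 7552 and 7145 bp apart. The nearest protein-coding gene at lower coordinates is ZMAT2, whose span ends 4589 bp from VTRNA1-1, and at higher coordinates PCDHA1, which begins 59893 bp from VTRNA1-3. All 3 lie within the span of the long non-coding RNA gene LOC105378198 (140711276 to 140758080), which shares its first base with VTRNA1-1. VTRNA2-1 (108 bp) stands alone at 136080491 to 136080598, 4630677 bp from VTRNA1-1 and between TGFBI (16672 bp away) and SMAD5 (52246 bp away).

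The RefSeq promoter table holds 0 of the 4 vault RNA genes. It holds LOC105378198, whose window on the plus strand (build GRCh38.p14, chr5:140711026-140711325) is shown because it takes in the 250 bases before VTRNA1-1 and the first 50 bases inside it, where polymerase and Brf1 were found. Capitals mark the matches to the motifs searched.

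LOC105378198: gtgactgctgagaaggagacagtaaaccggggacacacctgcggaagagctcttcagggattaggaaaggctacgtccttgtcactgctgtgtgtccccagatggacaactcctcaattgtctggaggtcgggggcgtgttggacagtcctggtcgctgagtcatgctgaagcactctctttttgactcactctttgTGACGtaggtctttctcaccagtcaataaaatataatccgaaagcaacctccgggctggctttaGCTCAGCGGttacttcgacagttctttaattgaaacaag

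On both strands, 8 motifs were searched. The A box letters GCNNAGNGG matched once, as GCTCAGCGG at bases 12 to 20 of VTRNA1-1 (140711287 to 140711295), and 29.1% of the 35116 promoter windows of the table hold such a match. TGACG, the core of the cyclic AMP response element, began 53 bases before the gene and is found in 24.6% of windows. The window held no match to the B box letters GTTCGANNC (0.829% of windows), to the palindromic progesterone response element ACANNNTGT (5.37%) or its single arm TGTNCT (41.4%). Only the first 50 of the 98 bases of VTRNA1-1 are in the window, and the rest of the gene, where an internal B box would lie, was not searched. TATAAA or TATATA (13.7%), ATTTGCAT (1.77%) and TGACGTCA (1.85%) were not matched either. G and C make up 50% of the window, which has 11 CG dinucleotides, against medians of 58.7% and 14 over the table.

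Regions were first counted within 200 bp of each gene. VTRNA1-2 had one in 13 of 16 lists, from 5 antibodies with vehicle and from all 8 with R5020. VTRNA1-3 had one in 7 lists (3 antibodies with vehicle, 4 with R5020) and VTRNA1-1 in 6 lists (3 and 3). VTRNA2-1 had none in any list. The 3 genes of the cluster had polymerase and Brf1 in both treatments, and the lists that set VTRNA1-2 apart were those of Maf1, H3K27Ac, POLR3C and POLR3GL.

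**Figure D1:**
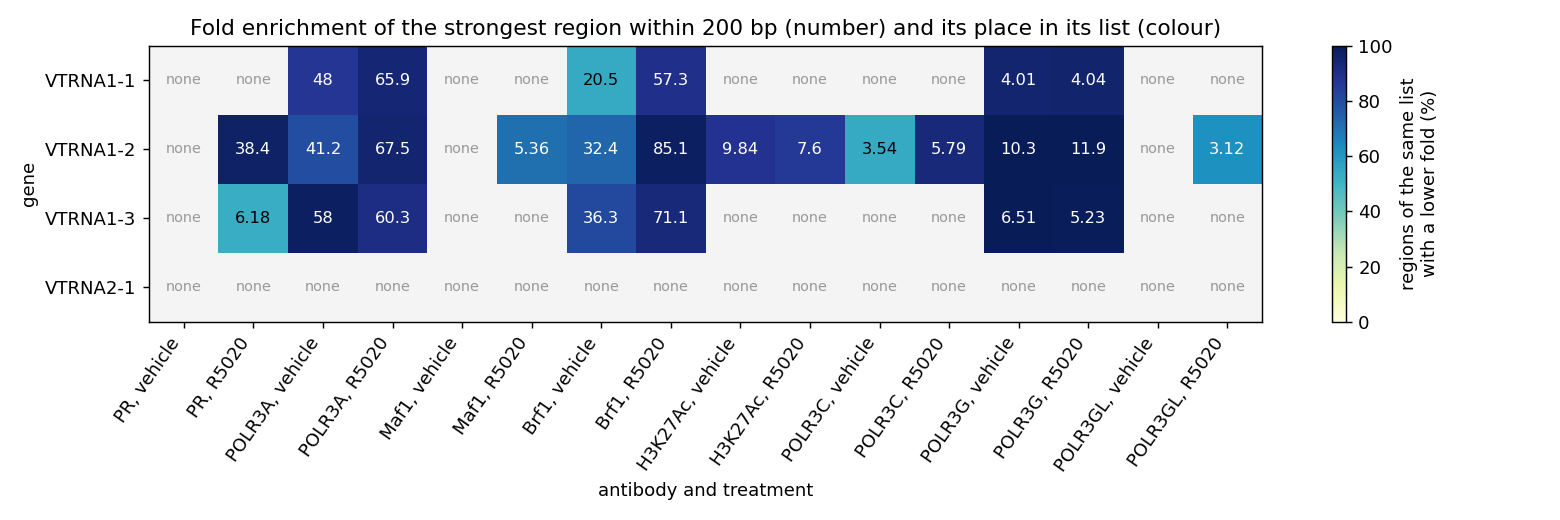
Rows are the 4 vault RNA genes and columns the 16 lists. The number is the authors' fold enrichment of the strongest region within 200 bp, the colour is the percentage of regions of the same list with a lower fold, and "none" marks no region. VTRNA1-2 is filled in 13 columns and VTRNA2-1 in none.

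These counts can be read against how often any gene has a region, with the reservation that RefSeq spans have a median of 5512 bp against 73 bp for tRNA genes, so an average gene offers more room. POLR3A regions lay at 3 of 4 vault RNA genes in each treatment, against 1.22% of all genes with vehicle and 1.30% with R5020. Brf1 regions also lay at 3 of 4, against 0.846% and 1.45%. POLR3G regions lay at 3 of 4 in each treatment, against 26.1% with vehicle and 22.4% with R5020. POLR3C regions lay at 1 of 4 in each, against 1.02% and 1.09%. POLR3GL regions lay at none with vehicle, where 0.372% of all genes had one, and at 1 with R5020 (0.260%). H3K27Ac regions lay at 1 of 4 in each treatment, against 39.2% and 40.2%. PR regions lay at none with vehicle (8.22%) and at 2 with R5020, where 47.3% of all genes had one. Maf1 regions lay at none with vehicle (4.74%) and at 1 with R5020 (21.0%). The PR and Maf1 counts with R5020 are thus near the share over all genes, and those of POLR3A and Brf1 are not.

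The 422 nuclear tRNA genes, as a class, also have internal promoter elements. Of these genes, 85.3% had POLR3A with vehicle (95% Wilson interval 81.6 to 88.4) and 85.1% with R5020 (81.4 to 88.2). Brf1 was found at 71.1% of them (66.6 to 75.2) and 73.2% (68.8 to 77.2). PR was found at 2.13% with vehicle (1.13 to 4.00) and 25.4% with R5020 (21.4 to 29.7), and Maf1 at 3.32% (1.99 to 5.49) and 22.3% (18.6 to 26.5). POLR3C was found at 23.5% (19.7 to 27.7) and 27.7% (23.7 to 32.2) of the tRNA genes, close to its 1 of 4 vault RNA genes. POLR3G was found at 51.2% (46.4 to 55.9) and 48.1% (43.4 to 52.9), H3K27Ac at 41.0% (36.4 to 45.7) and 37.7% (33.2 to 42.4), and POLR3GL at 0% (0 to 0.902) and 2.37% (1.29 to 4.31). The intervals cover counting error of genes only, and clustered tRNA genes can share a region.

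**Figure D2:**
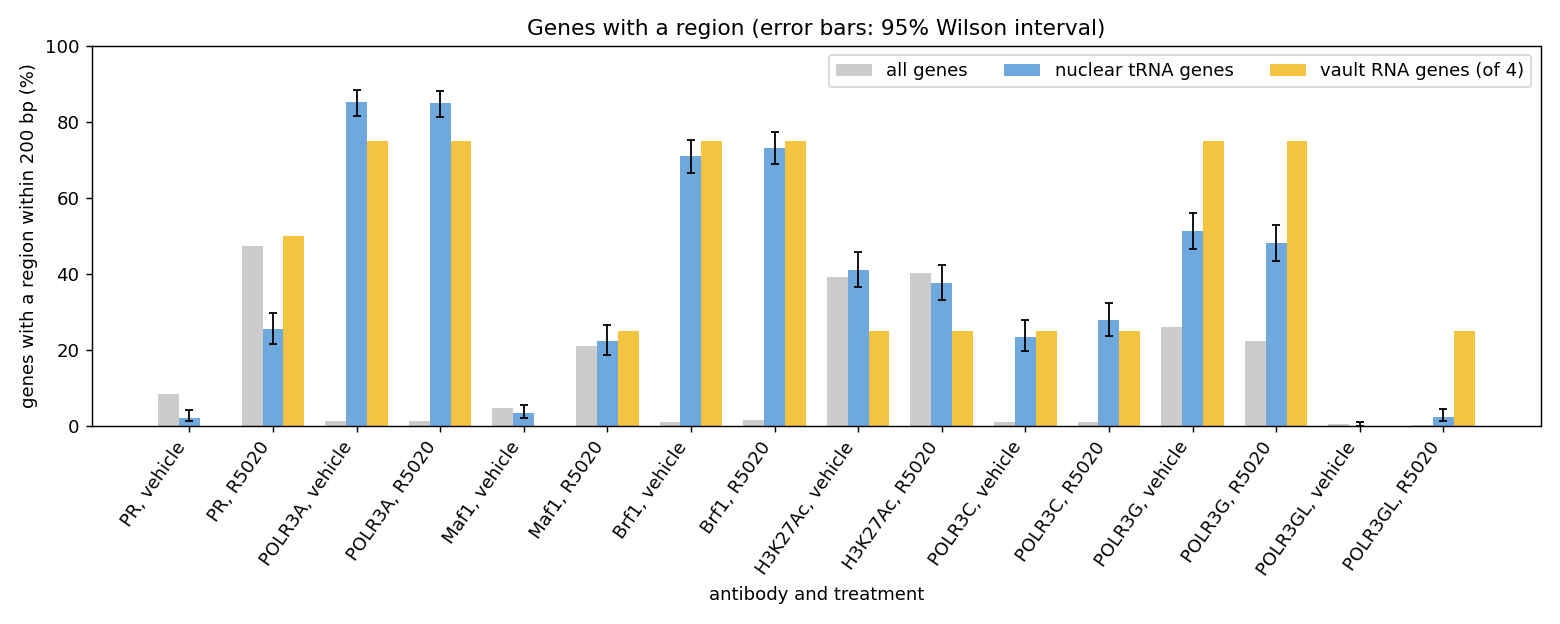
Bars give the percentage of all genes, of 422 nuclear tRNA genes and of the 4 vault RNA genes with a region within 200 bp in each list. Error bars are 95% Wilson intervals for tRNA genes. For POLR3A and Brf1 the tRNA and vault bars stand far above the bar for all genes.

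POLR3A, the catalytic core of the polymerase, covered all of VTRNA1-1, VTRNA1-2 and VTRNA1-3 in both treatments. At VTRNA1-3 the vehicle region (140725857 to 140726640) had a fold of 58.0, the highest in its list and shared by 14 regions. Its -log10 q of 438 was also the highest, shared by 19 regions. At VTRNA1-1 the vehicle fold was 48.0 (140711050 to 140711657) and at VTRNA1-2 41.2 (140718613 to 140719468). These 3 folds lay above those of 96.0%, 75.2% and 59.7% of the 303 regions at tRNA genes, whose median was 36.7. With R5020 the order differed: 67.5 at VTRNA1-2 (140718687 to 140719356), 65.9 at VTRNA1-1 (140711107 to 140711632) and 60.3 at VTRNA1-3 (140725967 to 140726541). They lay above 85.5%, 82.8% and 72.6% of the 303 tRNA gene regions of that list, whose median was 45.2. All 6 regions were thus above the tRNA median of their list. Of these folds, the 41.2 and 67.5 at VTRNA1-2 and the 60.3 at VTRNA1-3 recurred exactly at tRNA gene regions of the same list. Tied regions are not counted as lower in the percentages, and the order of the 3 genes may not reflect graded signal. Folds of different lists have different backgrounds, and a higher value in the R5020 list does not measure a gain.

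Brf1 was listed at the same 3 genes in both treatments. With vehicle its fold was 36.3 at VTRNA1-3 (140725962 to 140726480), 32.4 at VTRNA1-2 (140718630 to 140719386) and 20.5 at VTRNA1-1 (140711123 to 140711485). VTRNA1-1 was below the median of 27.2 over 242 tRNA gene regions, and the others were above it. With R5020 the fold was 85.1 at VTRNA1-2 (140718581 to 140719314), above 90.4% of the 251 tRNA gene regions of that list. It was 71.1 at VTRNA1-3 (140725907 to 140726414) and 57.3 at VTRNA1-1 (140711008 to 140711478), against a tRNA median of 54.3. VTRNA1-1 had the lowest Brf1 fold of the 3 in both lists.

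The summits, the points of highest signal that the caller reported, were placed alike at the 3 genes. Counted from the lower end of each gene, where negative values are outside it, the Brf1 summits with vehicle stood at -5, -4 and 6 bp for VTRNA1-1, VTRNA1-2 and VTRNA1-3. With R5020 they stood at 2, 0 and -9 bp. The POLR3A summits lay inside the gene, at 53, 35 and 44 bp with vehicle and at 40, 52 and 58 bp with R5020. The distance between the summits was 38 to 67 bp in all 6 cases. At tRNA genes its median was 50 bp with vehicle (quartiles 38 and 62, 242 regions) and 45 bp with R5020 (36 and 57, 251 regions). At VTRNA1-1 both Brf1 summits thus lay before the A box match of the sequence above, just outside the gene with vehicle and just inside it with R5020. Both POLR3A summits lay beyond that match, and the vehicle one also beyond the last base printed.

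**Figure D3:**
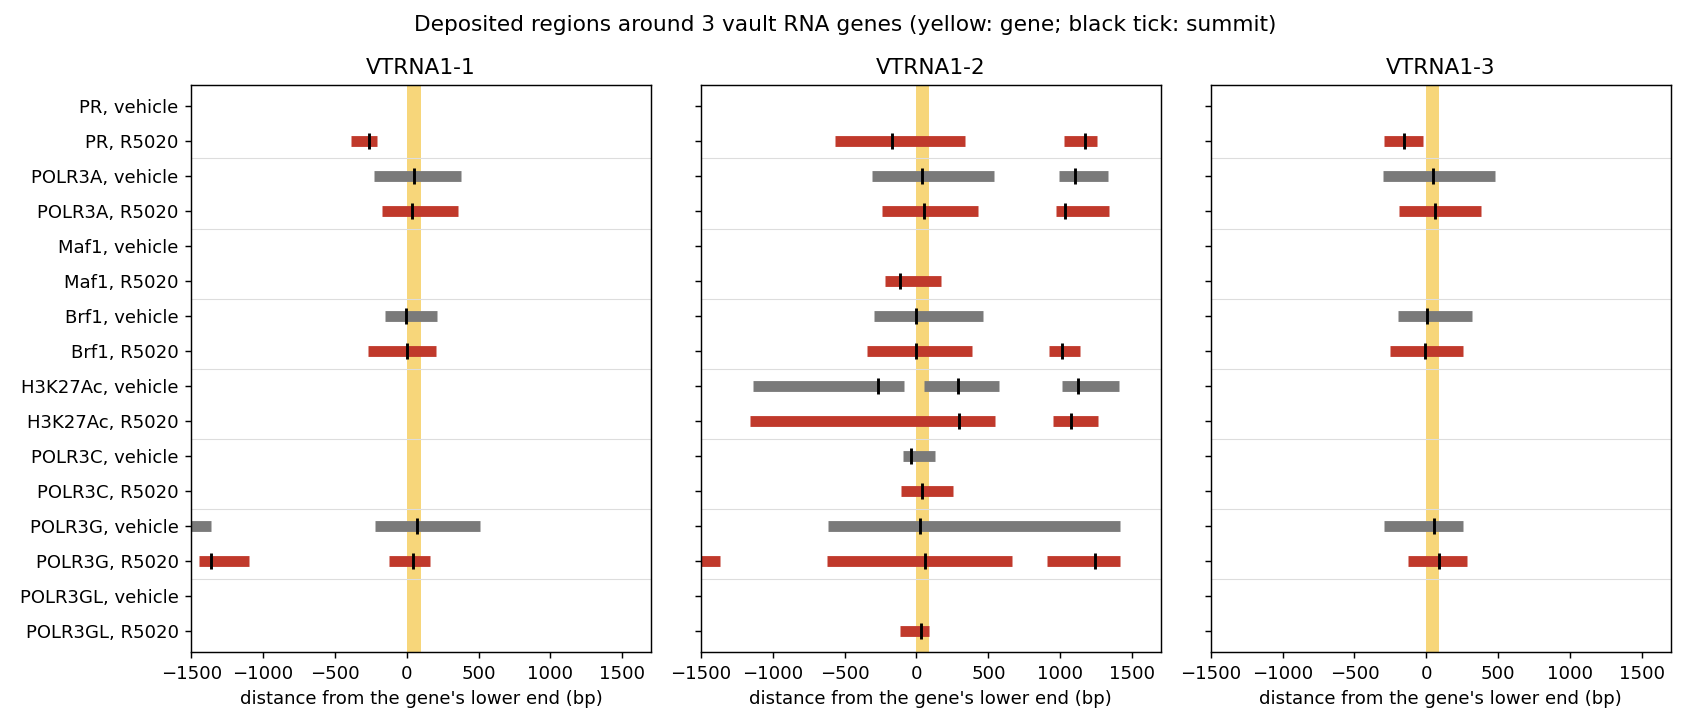
Bars are the deposited regions of each list around VTRNA1-1, VTRNA1-2 and VTRNA1-3 (grey vehicle, red R5020), black ticks their summits and the yellow band the gene. The x axis is the distance from the lower end of the gene in bp. For the regions nearest each gene, Brf1 ticks sit at the lower edge of the band, POLR3A ticks inside it, and PR ticks to its left. Further ticks of these antibodies stand to the right of VTRNA1-2.

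Of the other polymerase subunits, POLR3G was listed at all 3 genes of the cluster in both treatments, with the highest fold at VTRNA1-2. The POLR3G region of VTRNA1-2 ranked 25 by fold among 58424 with vehicle (fold 10.3, 140718308 to 140720342). With R5020 it ranked 14 among 46875 (fold 11.9, 140718305 to 140719592). VTRNA1-3 ranked 138 (fold 6.51) and 276 (fold 5.23) in the same lists. VTRNA1-1 ranked 2887 (fold 4.01) and 2078 (fold 4.04). Against the tRNA gene medians of 6.23 with vehicle and 7.43 with R5020, VTRNA1-2 was above in both lists, VTRNA1-3 above with vehicle and below with R5020, and VTRNA1-1 below in both. POLR3G thus gave the order VTRNA1-2, VTRNA1-3, VTRNA1-1 in both treatments. Its summits lay 2 to 32 bp from those of POLR3A at all 3 genes.

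POLR3C was listed at VTRNA1-2 alone. With vehicle the region was narrow and weak (140718831 to 140719056, fold 3.54, -log10 q 4.63), below the tRNA gene median of 4.13. With R5020 it had a fold of 5.79 and a -log10 q of 18.0 (140718815 to 140719177), above 89.2% of the 102 tRNA gene regions. POLR3GL was listed at VTRNA1-2 in the R5020 list alone (140718811 to 140719015), with a fold of 3.12 and a -log10 q of 2.42. With a -log10 q of at least 5, neither the vehicle POLR3C region nor this POLR3GL region was counted. The POLR3GL region had rank 227 of 603, and 10 of 422 tRNA genes had a POLR3GL region in the same list against 0 with vehicle. For POLR3C 2 of the 3 libraries of the R5020 list carry an ethanol tag, and for POLR3GL and POLR3G 1 of 3. The treatment behind the R5020 values of these 3 subunits is therefore uncertain.

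PR was not listed within 5 kb of any vault RNA gene with vehicle. With R5020 a PR region of 906 bp covered VTRNA1-2 (140718357 to 140719262), with a fold of 38.4 and a -log10 q of 277. Its fold was above those of 97.2% of the 173129 PR regions and of 95 of the 97 PR regions at tRNA genes, whose median was 6.29. At VTRNA1-3 a PR region ended 21 bp before the gene (140725866 to 140726138, fold 6.18, -log10 q 17.3), in the middle of the tRNA range. At VTRNA1-1 the nearest PR region was 210 bp away, just beyond the distance used (140710887 to 140711066, fold 2.73, -log10 q 2.56), and 2.50% of the list had a lower fold. The 3 genes thus had a strong, a middling and a weak PR region. The vehicle PR list is shorter, with 6663 regions, and with equal numbers of top regions PR was found with R5020 at 1 vault RNA gene, VTRNA1-2.

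All 3 PR summits lay on the same side, outside the gene at lower coordinates: -173 bp for VTRNA1-2, -158 bp for VTRNA1-3 and -264 bp for VTRNA1-1. From the POLR3A summit the PR summit was 225 bp away at VTRNA1-2 and 216 bp at VTRNA1-3. At the tRNA genes with both, the median distance was 252 bp (quartiles 158 and 514, 97 regions). The PR region of VTRNA1-1 reached 41 bases into the sequence above and ended before TGACG.

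Maf1, which represses the polymerase when bound to it, was listed at VTRNA1-2 with R5020 alone (140718710 to 140719100, fold 5.36, -log10 q 10.5). The R5020 Maf1 list is much longer, with 22683 regions against 3049, and with equal numbers of top regions Maf1 was found at 0 vault RNA genes. All of that region lay within the PR region, and equally within the R5020 regions of POLR3A, Brf1, H3K27Ac and POLR3G at that gene. Its fold was above 84.1% of the 88 Maf1 regions at tRNA genes and above 70.6% of the whole list. The Maf1 summit stood at -115 bp, 58 bp from that of PR and 167 bp from that of POLR3A. At tRNA genes the median distance of the Maf1 summit from the POLR3A summit was 62.5 bp (quartiles 21.8 and 306, 88 regions). No Maf1 region lay within 5 kb of the other vault RNA genes in either treatment.

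**Figure D4:**
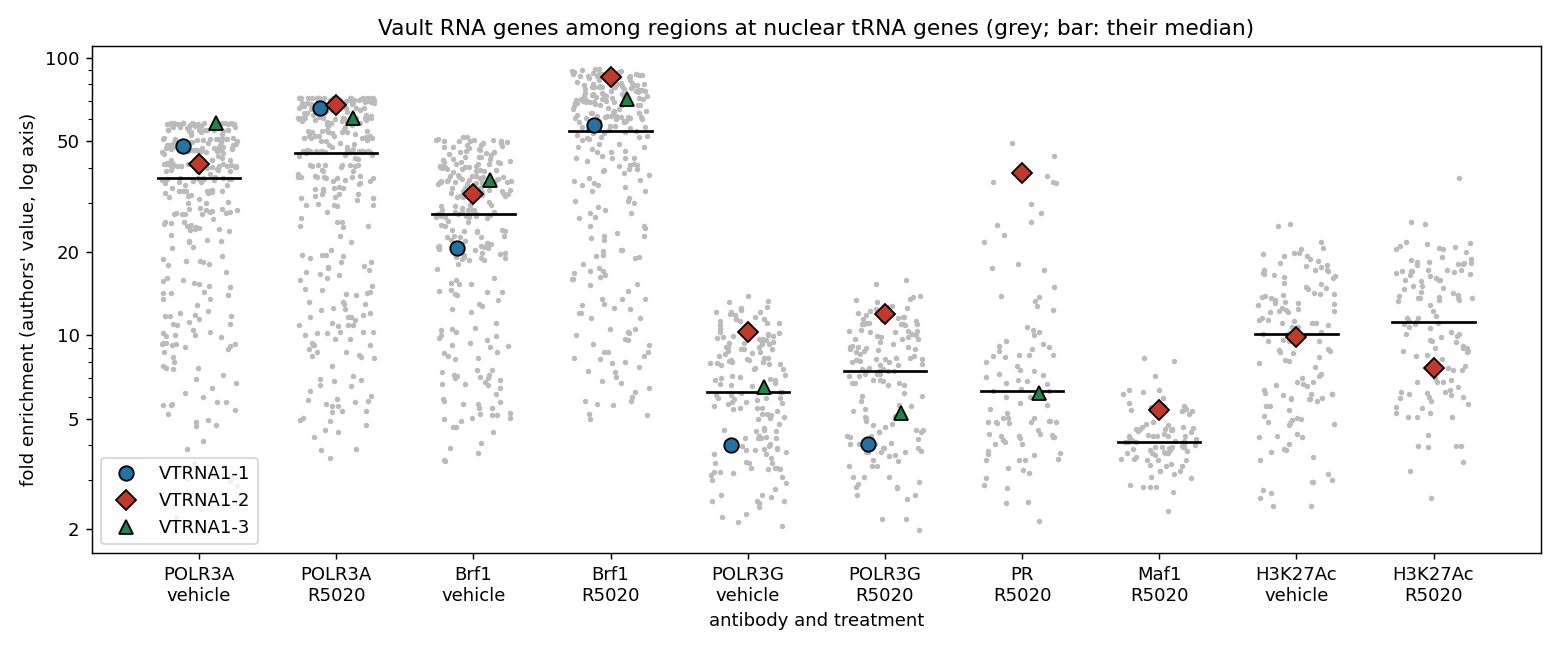
Grey points are the strongest regions at nuclear tRNA genes, with their median as a bar, and coloured markers are VTRNA1-1, VTRNA1-2 and VTRNA1-3. The y axis is the authors' fold enrichment on a log axis, comparable within a column only. VTRNA1-2 stands near the top for PR with R5020 and for POLR3G in both treatments.

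H3K27Ac was found at VTRNA1-2 and at no other vault RNA gene. With vehicle 2 regions bordered the gene, 140717787 to 140718842 (fold 5.28) and 140718975 to 140719500 (fold 9.84), with a gap of 132 bp between them that holds the first bases of the gene. With R5020 a single region of 1709 bp ran from 140717764 to 140719472 (fold 7.60). Its summit stood at 295 bp, 6 bp from that of the stronger vehicle region. These folds lay near or below the tRNA gene medians of 10.1 with vehicle and 11.2 with R5020.

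A second site lay beyond VTRNA1-2 at higher coordinates. A POLR3A region stood 907 bp from the gene with vehicle (140719920 to 140720262, fold 6.20) and 882 bp with R5020 (140719895 to 140720267, fold 6.66). H3K27Ac was listed there in both treatments (folds 4.69 and 5.82). The wide vehicle POLR3G region took it in, and a POLR3G region of fold 3.05 stood there with R5020. Brf1 (fold 9.13) and PR (fold 4.13) were listed there with R5020 alone. The R5020 list is longer for Brf1 (1173 regions against 370) and for PR (173129 against 6663). In the R5020 PR list, 26.7% of regions had a lower fold. No gene of the table other than LOC105378198 spans this second site. Among tRNA genes with POLR3A, 13 of 360 with vehicle (3.61%) and 11 of 359 with R5020 (3.06%) had such a further POLR3A region within 2 kb that was not at a tRNA, vault RNA or other listed polymerase III gene.

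From 5 kb before VTRNA1-1 to 5 kb after VTRNA1-3, 24971 bp in all, most of what the lists held lay at the genes. Of the POLR3A regions there, 3 of 4 were within 200 bp of a vault RNA gene in each treatment, and of the Brf1 regions 3 of 3 with vehicle and 3 of 4 with R5020. POLR3G was spread more widely, with 9 regions with vehicle and 7 with R5020, 3 at the genes in each list. Those away from the genes had folds of 2.66 to 3.86. At the low end of this stretch, a vehicle POLR3G region lay within the span of ZMAT2 (140705898 to 140706435, fold 3.05), and an R5020 one (140706434 to 140706902, fold 2.73) reached across its end. PR had 6 regions with R5020, among them 1 at 3188 bp from VTRNA1-1 (140707828 to 140708088) with a fold of 8.78. No region of any list lay between 200 bp and 5 kb of VTRNA1-3.

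VTRNA2-1 had no region within 5 kb in any of the 16 lists, whereas 71.5% of all genes had at least 1. Of the tRNA genes, 52 of 422 (12.3%) had no region within 200 bp and 15 (3.55%) none within 5 kb. The nearest POLR3A region was 3709242 bp away with vehicle and 3709172 bp with R5020, at SLC22A5. The nearest Brf1 region was that of VTRNA1-1 in both lists. The nearest PR region with R5020 was 16567 bp away at the higher end of TGFBI (136063711 to 136063924, fold 4.86). H3K27Ac began 51506 bp away with vehicle and 51469 bp with R5020, over SMAD5 and SMAD5-AS1. A Maf1 region of the R5020 list stood there too (52245 bp, fold 4.49), as did the nearest vehicle PR region (52215 bp, fold 4.40). Depth is unknown, so the absence of a region is the absence of a call and gives no limit on occupancy.

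**Figure D5:**
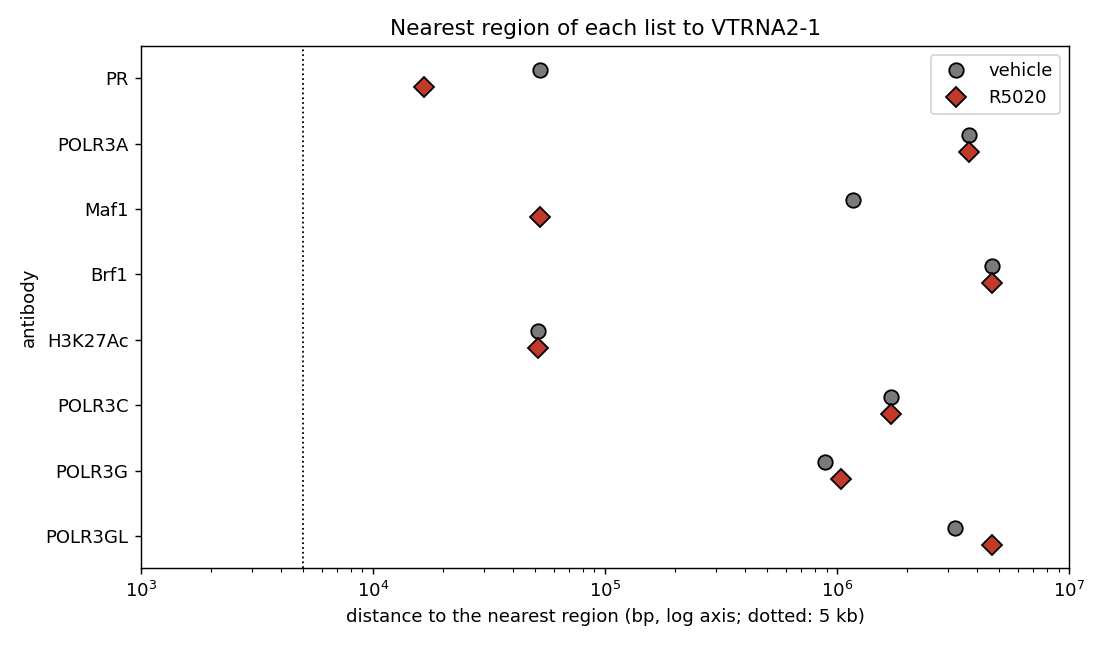
The distance in bp, on a log axis, from VTRNA2-1 to the nearest region of each antibody with vehicle (circles) and R5020 (diamonds). All 16 points lie to the right of the dotted line at 5 kb, the closest being R5020 PR at 16567 bp.

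Patterns over the 16 lists were compared with those of 432 genes, the 422 tRNA genes and 10 other polymerase III genes, by the number of lists in which presence within 200 bp differed. VTRNA1-1 matched 26 of them in all 16 lists, and the closest by fold percentile were TRR-ACG1-1, TRT-TGT4-1 and TRR-TCG2-1, with mean percentile differences of 4.05, 4.09 and 4.74 over 6 lists. VTRNA1-2 matched 4, and the closest were TRT-AGT1-1, TRS-TGA1-1 and TRP-TGG2-1, with differences of 10.4, 14.4 and 16.2 over 13 lists. VTRNA1-3 matched 1 gene, TRN-GTT2-2 (11.0 over 7 lists), and differed in 1 list from TRD-GTC2-7 and TRQ-TTG3-1. VTRNA2-1 matched the 52 tRNA genes without a region, the first by symbol being TRA-AGC12-1, TRA-AGC13-2 and TRA-AGC14-1.

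All 8 antibodies with R5020 were found at 12 of 59679 genes (0.0201%). They were VTRNA1-2 with LOC105378198, which spans it, 6 tRNA genes and 4 genes that are not polymerase III genes. The tRNA genes were TRM-CAT1-1, TRP-AGG2-4, TRP-TGG2-1, TRR-TCG1-1, TRS-TGA1-1 and TRT-AGT1-1, and the 4 others were TBC1D31, LTA4H, POLG and POLG-DT. These 12 genes are not 12 separate sites, since TRP-AGG2-4 and TRP-TGG2-1 share a POLR3A region. TBC1D31 is on chromosome 8, as is TRM-CAT1-1, and POLG and POLG-DT are on chromosome 15, as is TRR-TCG1-1. Whether the 4 others owe their regions to a tRNA gene nearby was not tested. No gene had all 8 with vehicle. The R5020 lists of PR (173129 regions against 6663) and Maf1 (22683 against 3049) are longer than the vehicle ones, and those of POLR3G and POLR3GL are shorter. The POLR3GL region of VTRNA1-2 was not counted with a -log10 q of at least 5. Its Maf1 region was not counted with equal numbers of top regions. The R5020 lists of POLR3C, POLR3G and POLR3GL also stand for libraries tagged ethanol.

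Among the 10 other polymerase III genes, all had POLR3A in both treatments, and Brf1 was at 3: BCYRN1, which encodes BC200 RNA, and RN7SL1 and RN7SL2, which encode the RNA of the signal recognition particle. The Brf1 and POLR3A summits were 92, 155 and 98 bp apart there with vehicle, and 156, 236 and 39 bp with R5020. RN7SK, RMRP, RPPH1, RNU6ATAC, RNY1, RNY3 and RNY4, whose promoters lie upstream of the gene, had no Brf1 region. With R5020, RN7SL1 had 7 antibodies, the most of these 10 genes, against 8 at VTRNA1-2. The vault RNA cluster shared POLR3A with all 10, and Brf1 with those 3 only of these 10 genes.

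The genes of the vault particle and of vault RNA handling were looked at as the other side of the pathway. They are MVP, which encodes the major vault protein, PARP4 and TEP1 for the other vault proteins, SSB for the La protein, NSUN2 for an RNA methyltransferase of vault RNA, and DUSP11 for an RNA phosphatase. H3K27Ac was found at 6 of 6 in both treatments, and PR at 1 (NSUN2) with vehicle and 6 with R5020. Maf1 was found at NSUN2 alone, with R5020, and POLR3G at 3 (MVP, NSUN2 and DUSP11) in each treatment. None had POLR3A, Brf1, POLR3C or POLR3GL. These spans are long, so the shares over all genes given above are only a rough comparison for them. With vehicle and R5020 those shares were 39.2% and 40.2% for H3K27Ac and 8.22% and 47.3% for PR. They were 4.74% and 21.0% for Maf1, and 26.1% and 22.4% for POLR3G.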

How the data were processed

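ChIP-seq was done on 48 libraries, with 6 input libraries, in 18 groups of 3 named by title. Per the submitters' processing notes, cutadapt, Bowtie2 and MACS2 were used with build hg38; versions, settings, controls and the combining of replicates are not given in the sources used here. The authors deposited, per region, a fold (ratio) over background, a -log10 p-value, a -log10 q-value, a whole-number score derived from it and a summit. The folds are the authors' values, used to describe and rank regions within 1 list; p-value and score were not used.

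Regions outside chromosomes 1 to 22, X and Y were left out. Gene spans came from RefSeq GRCh38.p14, which gives no strand; 422 tRNA genes with numbered symbols starting beyond 100000 bp were used. A region counted within 200 bp or 5 kb of a span. At a gene with several regions, the one of highest fold was taken. The named genes are the 4 members, their coding neighbours, genes holding a nearby region, 10 other polymerase III genes, 6 vault genes and the 3 most similar patterns; TBC1D31, LTA4H, POLG, POLG-DT and the other tRNA genes with all 8 antibodies, and SLC22A5 and SMAD5-AS1, were named after their values were seen. Members and lists were chosen with earlier results of these data known. The search of regions near 2000 genes was checked on simulated data, with 0 disagreements with a direct search. Python 3.11.15, numpy 2.4.6, pandas 2.3.3, scipy 1.17.1 and matplotlib 3.10.9 were used.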

Additional observations from a re-analysis of the deposited data

How the results depend on the processing

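Of 112 alternatives over the 32 counts, 100 left the count within 1.5 times its value, among them all those of POLR3A, Brf1 and H3K27Ac and all those within 1 kb. Part of the 100 was fixed in advance: a count of 0 cannot fall under a stricter setting, and equal numbers leave the shorter list unchanged. This rule also passes a change of 1 gene. POLR3G went from 3 genes to 2 in each treatment with a fold of at least 5, and R5020 PR from 2 to 3 within 1 kb. With overlap of the gene required, PR with R5020 was found at 1 vault RNA gene in place of 2, since the region of VTRNA1-3 ends before it. With equal numbers of top regions in both treatments, R5020 PR was found at 1 gene and R5020 Maf1 at 0. With a -log10 q of at least 5, and with a fold of at least 5, vehicle POLR3C and R5020 POLR3GL were each found at 0 genes. Within 5 kb, a -log10 q of at least 5 left 0 vehicle POLR3C, 0 R5020 POLR3GL, 5 of 9 vehicle POLR3G and 3 of 7 R5020 POLR3G regions, and a distance of 2 kb left 5 vehicle POLR3G regions. Regions of 2 lists at the same gene shared at least 1 bp in 15 of 15 pairs at VTRNA1-1, 78 of 78 at VTRNA1-2 and 21 of 21 at VTRNA1-3. At VTRNA1-1 and VTRNA1-2 this had to follow, because the regions compared covered the gene, that of vehicle H3K27Ac in part. Sharing of 50% of both was met by 12, 33 and 15 pairs. No paired analysis was possible because each list stands for 3 libraries and carries no replicate number, and no replicate could be left out for the same reason.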

Other observations

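The RefSeq table also holds 2 vault RNA pseudogenes, which were looked up after the other values were seen. VTRNA2-2P (chromosome 2, 65555432 to 65555534) and VTRNA3-1P (chromosome X, 53462210 to 53462310) had no region within 200 bp in any of the 16 lists. Within 5 kb, VTRNA2-2P had regions in 3 lists, those of PR with R5020 and of H3K27Ac in both treatments, and VTRNA3-1P in 0.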
